A study of Mus musculus with 12 samples.

Results

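Undifferentiated mouse embryonic stem (ES) cells that lack Smad4 (S4KO) were set against ES cells that lack both Smad2 and Smad3 (S2/3DKO), across all genes. The 2 S4KO and 2 S2/3DKO libraries were taken by genotype and day from their titles, and they are 4 of the 12 RNA-seq libraries of the series. Of 32285 gene IDs counted, 18693 passed the filter on low counts and were tested. The same genotypes were also sequenced at day 4, after LIF, the cytokine that holds mouse ES cells undifferentiated, had been removed and the cells had formed embryoid bodies, again with 2 libraries each. Wild-type cells (WT) were sequenced at both days with 2 libraries each, and their day 0 levels stand here as the background. The labels place every library in the line E14Tg2a.IV. They do not say how the alleles were made, how many clones stand for each genotype, or whether the replicates come from different cultures. The p-values therefore measure only the spread between these samples, which may be technical.

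Smad2 and Smad3 are the receptor-activated Smads of Nodal, activin and TGF-beta, whereas Smad1, Smad5 and Smad9 (also called Smad8) serve the BMP receptors. Smad4 is the common partner with which members of both branches enter the nucleus and bind DNA, and the branches are thought to draw on a shared supply of it. In mouse ES cells, Nodal and activin signals keep genes such as Lefty1 and Lefty2 active, and BMP signals keep the Id genes active. The comparison asks how losing the shared partner differs from losing the Nodal branch alone.

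The called targets of the branches mostly differed in opposite directions. Lefty1 and Lefty2, targets of Nodal, were higher in S4KO than in S2/3DKO, and Id1, Id2, Id3, Msx2, Gata2, Gata3 and Dlx3, targets of BMP, were lower. Of 16 listed Nodal and activin targets 3 were called, all higher, and of 18 BMP targets 7 were lower and 1 was higher. Msx2, Gata2, Gata3 and Dlx3 were above WT in S2/3DKO. Genes of the trophectoderm and placenta and the imprinted genes H19, Igf2 and Peg10 were also lower in S4KO, and H19, Igf2 and Peg10 were above WT in S2/3DKO. In all, 1034 genes (5.53% of those tested) were called at an adjusted p below 0.05 in edgeR's quasi-likelihood test, 402 higher in S4KO (2.15%) and 632 lower (3.38%). The median log2 fold change over all genes tested was 0.00. The CPM values (counts scaled to library size) of the groups did not overlap for 44% of all genes tested. The count of called genes fell to 334 without S2/3DKO replicate 2, 412 without S4KO replicate 1 and 632 without S4KO replicate 2, and was 1607 without S2/3DKO replicate 1. With offsets for transcript length and GC content it was 2518, of which 56.4% were higher in S4KO, against 38.9% without them.

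Several libraries stand apart in ways that touch these counts. Day 0 totals were 49523324 and 50166446 counts in S4KO, 50952687 and 46132635 in S2/3DKO, and 49829720 and 51353258 in WT, in replicate order. Mitochondrial transcripts took 2.82% and 3.38% of the counts in S4KO, 2.73% and 6.74% in S2/3DKO, and 2.13% and 2.34% in WT. Ribosomal-protein transcripts took 4.995% and 7.82% in S4KO, 5.99% and 6.53% in S2/3DKO, and 14.99% and 10.99% in WT. The part of these shares in the results was not tested.

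The knockouts also differed in X-linked and Y-linked transcripts that can mark a cell line, and these did not all set the same knockout apart from WT. Hprt, a purine salvage enzyme that E14Tg2a cells were isolated as lacking, had 212 and 203 CPM in S4KO, 0.724 and 0.455 CPM in S2/3DKO, and 0.455 and 0.627 CPM in WT. The S4KO libraries thus go against the line named for them, and its log2 fold change over S2/3DKO was 8.45 ± 0.41 (SE, n = 2 each, as throughout; adjusted p = 3.88e-06). Of 6 Y-linked genes chosen as markers, 5 were higher in S4KO, and most were nearly or wholly without counts in S2/3DKO. Their summed CPM was 99.4 and 91.1 in S4KO, 0.117 and 0.103 in S2/3DKO, and 97.6 and 96.2 in WT. The Y-linked gene models Gm21860 and Gm21748, picked out after their values were seen, went the other way. Gm21860 averaged 0.00991 CPM in S4KO and 2.63 CPM in S2/3DKO, and Gm21748 averaged 0 CPM in S4KO and 1.02 CPM in S2/3DKO (adjusted p = 0.00661). Eif2s3y, a translation factor subunit, had 31.4 and 44.4 CPM in S4KO, 0 and 0 CPM in S2/3DKO, and 65.6 and 65.9 CPM in WT, at least 1262-fold higher in S4KO when S2/3DKO is set to a floor of 3 counts over the group. Kdm5d, a histone demethylase, was called at an adjusted p of 0.0476 and was lost without any 1 of the 4 libraries (adjusted p = 0.115 to 0.173). Xist, the RNA that silences an X chromosome, had 6.90 and 1.70 CPM in S4KO, 33.2 and 80.0 CPM in S2/3DKO, and 0.839 and 1.04 CPM in WT (-3.72 ± 0.59, adjusted p = 0.00547). Its antisense partner Tsix was higher in S4KO (1.99 ± 0.44, adjusted p = 0.0256), although without the strand of the counting known the reads of this pair cannot be told apart, and the call was lost without any 1 of S2/3DKO replicate 2 and the S4KO libraries (adjusted p = 0.0709 to 0.188). Mid1, an X-linked ubiquitin ligase gene, had 0.248 and 0.396 CPM in S4KO, 293 and 207 CPM in S2/3DKO, and 382 and 489.6 CPM in WT (-9.58 ± 1.36, adjusted p = 0.00295). Hprt and Mid1 thus set S4KO apart from WT and S2/3DKO, whereas the summed Y-linked genes and Xist set S2/3DKO furthest from WT. Line and genotype cannot be told apart in this design. Leaving out all genes on chromosomes 8, X and Y left 607 calls, 198 higher and 409 lower in S4KO.

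The targeted genes were transcribed in both knockouts. Smad4 (ENSMUSG00000024515, chromosome 18, 73639009 to 73703780, build GRCm38) had 100.3 and 79.6 CPM in S4KO, 139 and 118 CPM in S2/3DKO, and 49.6 and 52.3 CPM in WT. The groups did not overlap, but the difference did not pass (-0.51 ± 0.20, adjusted p = 0.161). Smad2 (ENSMUSG00000024563, chromosome 18, 76241580 to 76310963) had 81.6 and 58.2 CPM in S4KO, 37.8 and 47.7 CPM in S2/3DKO, and 29.5 and 38.8 CPM in WT, and did not pass either (0.71 ± 0.25, adjusted p = 0.131), although it was called with length and GC offsets. Smad3 (ENSMUSG00000032402, chromosome 9, 63646767 to 63757994) overlapped between the knockouts, with 19.6 and 21.5 CPM in S4KO, 19.8 and 13.1 CPM in S2/3DKO, and 9.68 and 11.5 CPM in WT (0.33 ± 0.26, adjusted p = 0.517). A count over the whole gene does not check a knockout, since a frameshift or a deletion of some exons need not lower it, and the edited exons are not given.

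Among the ligand genes tested 10.5% were called, among the receptors and co-receptors 6.67%, and among the Smads and nuclear partners 6.25%. Over all genes tested the share was 5.53%. Of 20 ligand genes, 19 were tested, 2 were lower in S4KO and 0 higher, and the median log2 fold change was -0.05. Unadjusted p-values below 0.05 were found for 2 higher and 5 lower, and DESeq2 called 1 higher and 3 lower. Nodal, the main activator of Smad2 and Smad3 in these cells, had 54.5 and 57.6 CPM in S4KO, 57.6 and 27.0 CPM in S2/3DKO, and 99.0 and 102 CPM in WT. The knockouts overlapped, S2/3DKO replicate 2 was the low library, and the difference did not pass (0.41 ± 0.42, adjusted p = 0.642, and -0.05 without that library). Inhba, the activin A subunit, had 0 CPM in both S4KO libraries, 1.74 and 0.103 CPM in S2/3DKO, and 0.479 and 0.930 CPM in WT. With the S2/3DKO libraries pooled, that is at least 31.1-fold lower in S4KO against the 3-count floor (adjusted p = 0.045). S2/3DKO replicate 1 carried most of the pooled level, and the call was lost without it or without either S4KO library. Bmp8b, a BMP ligand of germ cell induction, had 0.849 and 0.813 CPM in S4KO, 2.56 and 2.85 CPM in S2/3DKO, and 1.70 and 2.59 CPM in WT (-1.70 ± 0.38, adjusted p = 0.0278). This call was lost without S2/3DKO replicate 2 or either S4KO library (adjusted p = 0.0999 to 0.105). Bmp5 was at 0 in all 4 libraries, and Bmp15 did not pass the filter on low counts.

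Of 16 receptor and co-receptor genes, 15 were tested, 1 was higher in S4KO and 0 lower, with a median of -0.44. The receptor that passed was Bmpr1b, a type I BMP receptor, with 2.75 and 2.02 CPM in S4KO, 0.606 and 0.207 CPM in S2/3DKO, and 1.22 and 1.58 CPM in WT (2.54 ± 0.55, adjusted p = 0.0233). It lost the call without S2/3DKO replicate 2 (adjusted p = 0.141) or S4KO replicate 1 (0.0911). Tdgf1, the Nodal co-receptor also called Cripto, had 1121 and 1204 CPM in S4KO, 1137 and 522 CPM in S2/3DKO, and 1209 and 1106 CPM in WT, and did not pass (0.49 ± 0.36, adjusted p = 0.485). Acvr1c, a type I receptor for Nodal, was at 0 in all 4 libraries.

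Of 16 Smads and nuclear partners, all tested, 1 was lower in S4KO and 0 higher, with a median of -0.00. It was Smad9, a Smad of the BMP branch, with 0.642 and 1.07 CPM in S4KO, 3.38 and 3.49 CPM in S2/3DKO, and 0.647 and 0.995 CPM in WT. Its log2 fold change was -2.00 ± 0.43 (adjusted p = 0.0237), and the call was lost without S2/3DKO replicate 2 (0.084) or S4KO replicate 1 (0.124). At day 4, in other libraries, Smad9 was lower in S4KO again (-3.22 ± 0.49, adjusted p = 0.00218). The inhibitory Smad7, a target of both branches, had 14.99 and 23.4 CPM in S4KO, 46.8 and 18.3 CPM in S2/3DKO, and 55.5 and 58.3 CPM in WT. The knockouts overlapped, and the value turned on S2/3DKO replicate 1 (-0.76 ± 0.38, adjusted p = 0.285, and 0.05 without that library).

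Among the secreted antagonists, all tested, 2 of 13 were higher in S4KO and 2 lower, with a median of 0.00. Lefty1 and Lefty2, which block Nodal and are themselves among its targets, were the 2 that were higher. Fstl3, which binds activins, had 1.01 and 2.10 CPM in S4KO, 5.71 and 9.36 CPM in S2/3DKO, and 1.63 and 2.25 CPM in WT (-2.27 ± 0.43, adjusted p = 0.013). S2/3DKO was the group that stood above WT. The Fstl3 call was lost without S2/3DKO replicate 2 (0.0749) or S4KO replicate 1 (0.0758). Cer1, another Nodal antagonist, was at 0 in all 4 libraries.

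A few targets of Nodal and activin were higher in S4KO than in S2/3DKO, and most did not pass the test. Of 16 such genes, all tested, 3 were higher in S4KO and 0 lower, with a median of 0.53, and 13 of the 16 had positive values. Lefty1 (chromosome 1, 180935022 to 180938400) had 18.97 and 30.7 CPM in S4KO, 0.0587 and 0.0620 CPM in S2/3DKO, and 226 and 225 CPM in WT. S4KO lay between the other genotypes, without overlap, 8.63 ± 0.95 above S2/3DKO on the log2 scale (adjusted p = 0.000773). Comparisons with WT share libraries with each other and with this one; they called 19.6% of all genes in S4KO (10.5% higher, 9.14% lower) and 31% in S2/3DKO (16.7% higher, 14.4% lower). Against WT, Lefty1 was -3.18 in S4KO (adjusted p = 0.0103) and -11.81 in S2/3DKO (0.000141). Lefty2 (chromosome 1, 180893108 to 180899103) had 20.7 and 38.1 CPM in S4KO, 0.489 and 0.124 CPM in S2/3DKO, and 151 and 164 CPM in WT, the same order (6.56 ± 1.09, adjusted p = 0.00649). Its call was lost without S2/3DKO replicate 2, where the difference was 5.89 (adjusted p = 0.0741).

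Kirrel2, a cell-adhesion gene beside Nphs1 on chromosome 7 and among the 15 called genes with the largest rise, had 18.6 and 32.6 CPM in S4KO, 1.66 and 1.22 CPM in S2/3DKO, and 24.3 and 29.4 CPM in WT. S4KO was at the WT level and S2/3DKO was below it (4.15 ± 0.68, adjusted p = 0.00607, and 0.0724 without S2/3DKO replicate 2). Nphs1, the nephrin gene and a listed Nodal target, had 130.1 and 211 CPM in S4KO, 79.5 and 49.2 CPM in S2/3DKO, and 337 and 276 CPM in WT, and did not pass (1.41 ± 0.45, adjusted p = 0.0987), although DESeq2 and the length and GC offsets called it. Pmepa1, a feedback inhibitor of the pathway, did not pass (0.97 ± 0.39, adjusted p = 0.174) with S4KO replicate 1 near the S2/3DKO libraries, 8.49 and 20.9 CPM in S4KO, 8.17 and 6.80 CPM in S2/3DKO, and 22.6 and 22.1 CPM in WT.

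**Figure D1:**
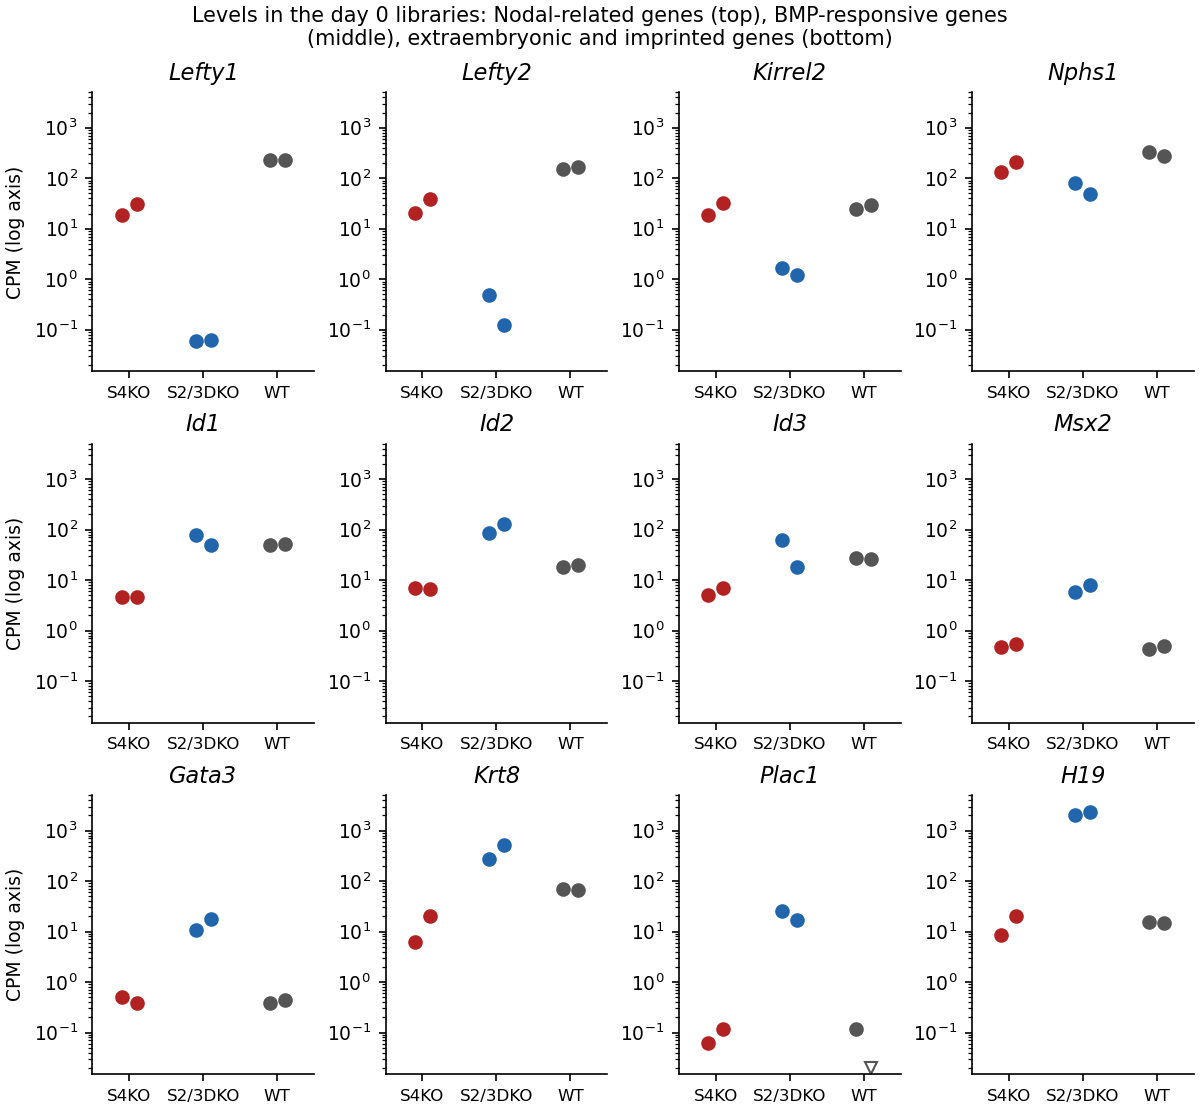
Level of 12 genes in every day 0 library (CPM, log axis), with S4KO left, S2/3DKO in the middle and WT right; each point is 1 library and an open triangle marks a library at 0. Lefty1, Lefty2, Kirrel2 and Nphs1 lie higher in S4KO than in S2/3DKO, and the Id genes, Msx2 and the trophoblast and imprinted genes lie lower.

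Targets of BMP went the other way. Of 18 listed genes, all tested, 7 were lower in S4KO and 1 was higher, with a median of -0.94, and 6 or 7 were lower whichever of the 4 libraries was left out. Id1 (chromosome 2, 152736251 to 152737410) codes for an inhibitor of basic helix-loop-helix factors that BMP induces in ES cells. It had 4.70 and 4.60 CPM in S4KO, 80.0 and 49.1 CPM in S2/3DKO, and 48.8 and 51.3 CPM in WT. S4KO alone stood below WT (-3.43, adjusted p = 0.00516), while S2/3DKO did not pass against WT (0.37, adjusted p = 0.529), and S4KO was 3.80 ± 0.47 log2 units below S2/3DKO (adjusted p = 0.00147). Id2 (chromosome 12, 25093799 to 25097140), of the same family, had 6.999 and 6.62 CPM in S4KO, 87.0 and 127 CPM in S2/3DKO, and 18.5 and 20.2 CPM in WT. The knockouts lay on either side of WT, S4KO below it (-1.51, adjusted p = 0.00872) and S2/3DKO above it (2.46, adjusted p = 0.0006), and differed by -3.97 ± 0.30 (adjusted p = 0.000111). Id3 (chromosome 4, 136143497 to 136145755) had 5.16 and 7.02 CPM in S4KO, 61.4 and 18.2 CPM in S2/3DKO, and 27.9 and 26.1 CPM in WT. The S2/3DKO replicates straddled the WT level, and the call (-2.71 ± 0.68, adjusted p = 0.0429) was lost without S2/3DKO replicate 1 or either S4KO library (adjusted p = 0.119 to 0.163). Id4 did not pass (-1.04 ± 0.35, adjusted p = 0.114).

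Msx2 (chromosome 13, 53466884 to 53473074), a homeobox gene of the BMP pathway, had 0.476 and 0.535 CPM in S4KO, 5.73 and 7.995 CPM in S2/3DKO, and 0.431 and 0.497 CPM in WT. S4KO was at the WT level and S2/3DKO was the raised group (-3.75 ± 0.35, adjusted p = 0.000322). The same held for Gata3, a trophectoderm factor that BMP induces, with 0.518 and 0.377 CPM in S4KO, 10.8 and 17.7 CPM in S2/3DKO, and 0.383 and 0.432 CPM in WT (-4.99 ± 0.52, adjusted p = 0.000673). Gata2, its relative in trophoblast and blood, had 2.24 and 4.20 CPM in S4KO, 34.7 and 31.3 CPM in S2/3DKO, and 2.44 and 1.86 CPM in WT (-3.36 ± 0.43, adjusted p = 0.00164). Dlx3, a homeobox gene of placenta and ectoderm, had 0.145 and 1.21 CPM in S4KO, 22.3 and 12.4 CPM in S2/3DKO, and 0.336 and 0.389 CPM in WT (-4.66 ± 0.73, adjusted p = 0.00508). The lower BMP targets were thus of more than 1 kind. Id1 and Id3 were below WT in S4KO, and Msx2, Gata2, Gata3 and Dlx3 were above WT in S2/3DKO. The gene that was higher was Zfp521, a zinc-finger cofactor gene, with 2.69 and 3.41 CPM in S4KO, 1.10 and 0.351 CPM in S2/3DKO, and 0.959 and 1.21 CPM in WT (2.07 ± 0.47, adjusted p = 0.0275). It lost the call without S2/3DKO replicate 2 or either S4KO library (adjusted p = 0.0601 to 0.122).

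Promoters of 3 of these genes are given, since each differed between the knockouts and Smad proteins bind short known motifs. They are RefSeq sequences from build GRCm38.p6, from 250 bases before to 50 bases after the RefSeq start of the gene, read 5′ to 3′ on the gene's strand, for Id2 (chr12:25096043-25096342, minus strand), Id3 (chr4:136143572-136143871, plus strand) and Msx2 (chr13:53472731-53473030, minus strand). The windows lie inside the GENCODE spans given above, whose outermost starts differ from the RefSeq ones. Capitals mark matches, on either strand, to CAGAC, the Smad box bound by Smad3 and Smad4, to GTCTAGAC, a palindrome of paired Smad half-sites, or to GGCGCC, a GC-rich site of BMP Smads. These motifs do not contain each other.
Id2: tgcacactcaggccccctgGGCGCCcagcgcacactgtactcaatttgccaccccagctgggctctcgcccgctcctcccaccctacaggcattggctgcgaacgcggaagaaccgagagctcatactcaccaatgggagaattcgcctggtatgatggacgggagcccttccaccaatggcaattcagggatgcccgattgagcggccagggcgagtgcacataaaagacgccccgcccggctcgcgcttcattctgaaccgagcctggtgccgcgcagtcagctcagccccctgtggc
Id3: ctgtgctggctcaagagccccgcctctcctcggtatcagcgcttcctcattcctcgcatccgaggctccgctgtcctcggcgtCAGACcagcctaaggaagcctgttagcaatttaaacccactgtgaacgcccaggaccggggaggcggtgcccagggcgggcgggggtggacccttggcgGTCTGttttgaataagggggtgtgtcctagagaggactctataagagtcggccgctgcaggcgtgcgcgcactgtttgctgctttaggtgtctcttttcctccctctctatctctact
Msx2: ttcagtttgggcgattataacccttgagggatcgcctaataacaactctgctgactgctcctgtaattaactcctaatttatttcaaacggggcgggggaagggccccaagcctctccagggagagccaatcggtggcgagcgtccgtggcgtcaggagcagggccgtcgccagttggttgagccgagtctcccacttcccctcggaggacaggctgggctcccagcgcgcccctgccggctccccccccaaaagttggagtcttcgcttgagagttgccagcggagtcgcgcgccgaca
The Id2 window held 1 GGCGCC and the Id3 window 2 copies of the Smad box, 1 on each strand, while none of these letters was found in the Msx2 window. Of 32851 promoters of 300 bases in the table, 49.6% held the Smad box, 0.213% GTCTAGAC and 11.9% GGCGCC. A match is a description of the letters and not a bound site.

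**Figure D2:**
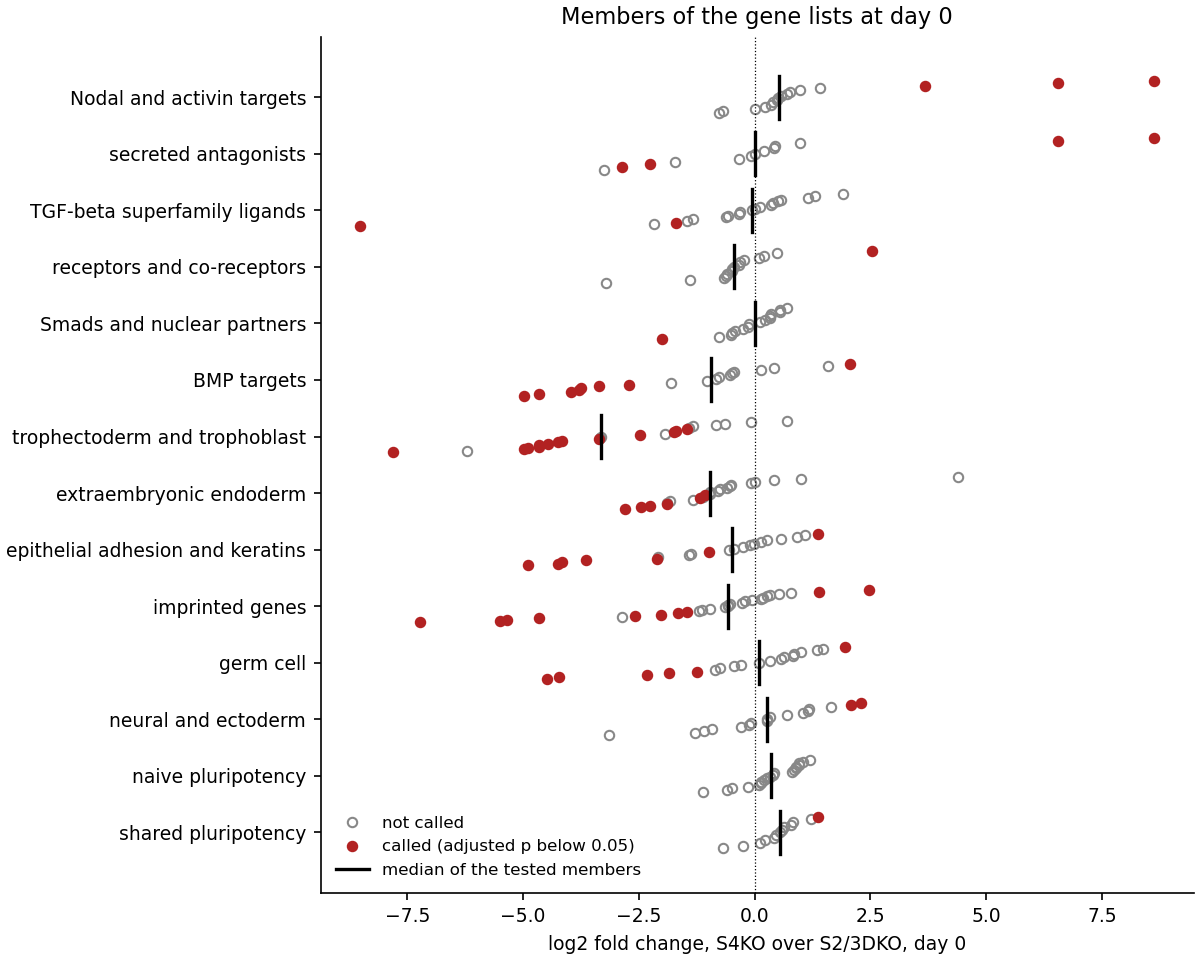
Log2 fold change of S4KO over S2/3DKO at day 0 for every tested member of 14 gene lists; filled points were called at an adjusted p below 0.05, open points were not, and the bar is the list's median. The trophectoderm list has the lowest median, -3.31, and the Nodal and activin targets have a median of 0.53.

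Genes of the trophectoderm, the outer layer of the blastocyst that forms the placenta, were widely lower in S4KO than in S2/3DKO. Of 24 listed genes, 23 were tested, 13 were lower in S4KO and 0 higher, with a median of -3.31, or -2.57 with genes without counts in a group set at their bound. The count of lower genes ran between 10 and 16 when 1 of the 4 libraries was left out. Gata2, Gata3 and Dlx3 belong to this list as well as to the BMP targets, so the lists are not independent. Plac1, an X-linked placental gene, had 0.0621 and 0.119 CPM in S4KO, 25.05 and 16.98 CPM in S2/3DKO, and 0.120 and 0 CPM in WT (-7.81 ± 0.64, adjusted p = 0.000151). Peg10, a retrotransposon-derived imprinted gene that the placenta needs, had 147 and 94.8 CPM in S4KO, 2811 and 3266 CPM in S2/3DKO, and 195 and 229.9 CPM in WT (-4.65 ± 0.37, adjusted p = 0.000137). In both genes S4KO lay near WT and S2/3DKO far above it.

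Krt8, a keratin of simple epithelia, had 6.25 and 20.6 CPM in S4KO, 275 and 526 CPM in S2/3DKO, and 68.8 and 67.0 CPM in WT. Both S4KO libraries lay below the WT libraries, and both S2/3DKO libraries above them (-4.90 ± 0.90, adjusted p = 0.0104), and the call was lost without S4KO replicate 1 (-4.32, adjusted p = 0.0682). Its partner Krt18 had 5.94 and 25.2 CPM in S4KO, 204 and 357 CPM in S2/3DKO, and 94.7 and 79.5 CPM in WT (-4.17 ± 0.75, adjusted p = 0.00928). Krt7, also of this list, was lower as well (-4.24 ± 0.74, adjusted p = 0.00842), as were Hand1 (-4.46 ± 0.97, 0.0241), a basic helix-loop-helix factor of trophoblast giant cells, and Esx1 (-2.48 ± 0.47, 0.0132), a placental homeobox gene. Fgfr2, the FGF4 receptor of trophoblast stem cells, was lower by less (-1.75 ± 0.29, adjusted p = 0.00607).

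Of the early factors of the lineage, Cdx2 and Elf5 were at low levels throughout. Cdx2 had 0.124 and 0.0396 CPM in S4KO, 1.25 and 0.434 CPM in S2/3DKO, and 0 and 0.130 CPM in WT (-3.33 ± 0.92, adjusted p = 0.0603). Elf5 had 0 and 0.178 CPM in S4KO, 0.704 and 1.14 CPM in S2/3DKO, and 0.0479 and 0.173 CPM in WT (-3.31 ± 0.91, adjusted p = 0.0585, and below 0.05 in 9 of the alternatives). Eomes, which marks both trophectoderm and primitive streak, did not pass (0.70 ± 0.25, adjusted p = 0.129), nor did Tfap2c (-0.64 ± 0.24, adjusted p = 0.151). The summed CPM of 9 markers fixed for trophoblast cells was 7.43 and 14.2 in S4KO, 123 and 138 in S2/3DKO, and 24.3 and 23.2 in WT. In bulk samples, fewer cells of a type and less RNA per cell cannot be told apart.

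Extraembryonic endoderm genes followed the same direction with fewer calls. Of 22 genes tested, 6 were lower in S4KO and 0 higher, with a median of -0.96, but 1 was lower without S2/3DKO replicate 2, 1 without S4KO replicate 1 and 4 without S4KO replicate 2, against 7 without S2/3DKO replicate 1. Col4a1, a basement-membrane collagen, had 32.2 and 45.8 CPM in S4KO, 155 and 218 CPM in S2/3DKO, and 15.5 and 21.2 CPM in WT (-2.25 ± 0.40, adjusted p = 0.00849, and 0.0583 without S4KO replicate 1). It lies on chromosome 8, whose genes were mostly higher in S4KO. Gata4, a transcription factor of this lineage, had 3.15 and 3.53 CPM in S4KO, 6.10 and 8.02 CPM in S2/3DKO, and 1.03 and 1.08 CPM in WT (-1.08 ± 0.28, adjusted p = 0.0478, and 0.119 to 0.223 without S2/3DKO replicate 2 or either S4KO library). Its relative Gata6 did not pass (-1.34 ± 0.48, adjusted p = 0.137). The summed CPM of 9 markers fixed for these cells was 165 and 148 in S4KO, 349 and 401 in S2/3DKO, and 80.0 and 89.0 in WT, so S4KO lay between the other genotypes here.

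Among 27 imprinted genes, expressed from 1 parental copy, 8 were lower in S4KO and 2 higher, with a median of -0.57. Without S2/3DKO replicate 2 the lower count was 4, and it was 6 to 10 without any 1 of the other libraries. H19 (chromosome 7, 142575529 to 142578143), a growth-limiting noncoding RNA, had 8.68 and 20.5 CPM in S4KO, 2073 and 2333 CPM in S2/3DKO, and 15.4 and 14.7 CPM in WT. Its neighbour Igf2, a fetal growth factor, had 4.02 and 6.36 CPM in S4KO, 214 and 212 CPM in S2/3DKO, and 6.16 and 6.01 CPM in WT. S4KO was near WT and S2/3DKO above it for both. H19 differed by -7.24 ± 0.48 (adjusted p = 6.65e-05) and Igf2 by -5.36 ± 0.50 (adjusted p = 0.000322). Sgce (-2.59 ± 0.32, adjusted p = 0.00147), which shares its imprinted domain with Peg10, and Peg3 (-2.01 ± 0.39, 0.0135, and 0.0782 without S2/3DKO replicate 2) were lower too. Grb10, an adaptor that restrains insulin and growth factor signals, went the other way, with 348 and 181 CPM in S4KO, 58.2 and 37.2 CPM in S2/3DKO, and 146 and 165 CPM in WT (2.47 ± 0.32, adjusted p = 0.00168). Mest had 120.5 and 83.3 CPM in S4KO, 45.9 and 31.5 CPM in S2/3DKO, and 6.06 and 11.6 CPM in WT, above WT in both knockouts and highest in S4KO (1.40 ± 0.32, adjusted p = 0.0282). Meg3 did not pass (0.27 ± 0.28, adjusted p = 0.644).

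Pluripotency genes did not separate the knockouts by the test. Of 20 naive pluripotency genes, 0 were called by edgeR in either direction, with a median of 0.36, and an unadjusted p below 0.05 was found for 1 lower gene, as DESeq2 also called. Without S2/3DKO replicate 1, 5 were higher in S4KO and the median was 1.36. Zfp42 had 814 and 612 CPM in S4KO, 553 and 178 CPM in S2/3DKO, and 444 and 488 CPM in WT (0.96 ± 0.46, adjusted p = 0.263, and 0.0261 without S2/3DKO replicate 1). Esrrb showed the same low S2/3DKO replicate 2, with 781 and 766 CPM in S4KO, 598 and 239.6 CPM in S2/3DKO, and 525 and 638 CPM in WT (0.89 ± 0.46, adjusted p = 0.301). That library also has the 6.74% of mitochondrial counts. Pou5f1, the core factor Oct4, had 958 and 1256 CPM in S4KO, 935 and 719 CPM in S2/3DKO, and 2164 and 2170.0 CPM in WT, lower than WT in all 4 knockout libraries and not called between them (0.42 ± 0.32, adjusted p = 0.499).

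Of 13 genes shared by naive and later pluripotency, 1 was higher in S4KO, with a median of 0.54. Without S2/3DKO replicate 1 the count was 5 and the median 1.10. The gene called with all libraries was Cdh1, the epithelial cadherin gene on chromosome 8, with 982 and 1015 CPM in S4KO, 382 and 386 CPM in S2/3DKO, and 409.5 and 475 CPM in WT (1.38 ± 0.21, adjusted p = 0.00402). Otx2, an early factor of the formative epiblast, was lower in S4KO (-1.77 ± 0.41, adjusted p = 0.0298), with 13.9 and 8.25 CPM in S4KO, 50.2 and 25.5 CPM in S2/3DKO, and 47.6 and 57.5 CPM in WT, a call lost without S2/3DKO replicate 1 or S4KO replicate 2 (0.102 and 0.145). Of 17 neural and ectoderm genes tested, 2 were higher, Pax6 (2.09 ± 0.51, 0.0383) and the neuronal tubulin Tubb3 (2.31 ± 0.57, 0.0404), and both calls were lost without S2/3DKO replicate 2 or either S4KO library (adjusted p = 0.0677 to 0.224). Of 19 germ cell genes, 5 were lower and 1 higher, but 3 were lower without S2/3DKO replicate 2 and 2 without S4KO replicate 1. The lower ones included the X-linked homeobox genes Rhox6 (-4.49 ± 0.66, adjusted p = 0.00369), with 2.13 and 7.49 CPM in S4KO, 63.2 and 154 CPM in S2/3DKO, and 10.2 and 6.46 CPM in WT, and Rhox9 (-4.22 ± 0.58, 0.00262), which are also expressed in placenta. Rhox genes form a family of close copies, so part of their reads may be shared.

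The 15 largest rises among called genes with at least 5 CPM in the higher group began with the Y-linked genes, Lefty1, Hprt and Lefty2. After Kirrel2 came Tchh, the trichohyalin gene, with 6.27 and 5.97 CPM in S4KO, 0.645 and 0.289 CPM in S2/3DKO, and 0.312 and 0.324 CPM in WT (3.70 ± 0.47, adjusted p = 0.00163). Syngr4, a synaptogyrin gene, had 16.01 and 20.2 CPM in S4KO, 1.21 and 2.17 CPM in S2/3DKO, and 2.92 and 1.75 CPM in WT (3.42 ± 0.42, adjusted p = 0.00147). In Gna14, a G protein subunit gene, S2/3DKO was instead the group below WT, with 28.9 and 21.5 CPM in S4KO, 4.46 and 1.55 CPM in S2/3DKO, and 12.5 and 13.4 CPM in WT (3.07 ± 0.46, adjusted p = 0.004). Tex13b, an X-linked gene, completed the set with 3.02 ± 0.37 (adjusted p = 0.00147). Cd37 (3.58), Robo4 (3.09) and Halr1 (3.04) were also among the 15, and each lost its call without at least 3 of the 4 libraries in turn (adjusted p = 0.054 to 0.246).

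The 15 largest drops were mostly genes that WT and S4KO hardly expressed. Csf1r, the macrophage colony-stimulating factor receptor, also made in trophoblast, had 0 and 0 CPM in S4KO, 3.52 and 10.8 CPM in S2/3DKO, and 0 and 0 CPM in WT, at least 232-fold lower in S4KO (adjusted p = 0.00748). The protocadherin gene Pcdh12, which like Csf1r lies on chromosome 18, had 0 and 0 CPM in S4KO, 3.99 and 10.4 CPM in S2/3DKO, and 0 and 0.0432 CPM in WT, at least 233-fold lower (adjusted p = 0.000781). Olr1, a scavenger receptor gene, was at least 229-fold lower in S4KO on the same scale (adjusted p = 0.00156). Pparg, a nuclear receptor required in the placenta, had 0 and 0.0595 CPM in S4KO, 7.35 and 12.6 CPM in S2/3DKO, and 0 and 0 CPM in WT, 326-fold lower with a 95% counting interval from 111 to 1584. Nrk, an X-linked kinase gene of the placenta, had 2.24 and 1.47 CPM in S4KO, 105 and 192 CPM in S2/3DKO, and 1.63 and 0.432 CPM in WT (-6.33 ± 0.61, adjusted p = 0.000449). Gjb2, the gene of the gap-junction protein connexin 26, had 0.476 and 0.575 CPM in S4KO, 23.2 and 54.4 CPM in S2/3DKO, and 1.08 and 1.12 CPM in WT (-6.20 ± 0.44, adjusted p = 9.15e-05).

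Mid1, H19 and Plac1, described above, were in this set, as were Epn3 (-6.99 ± 1.12, adjusted p = 0.00547), Nxf7 (-6.16 ± 0.55, 0.000282) and Zfp36l3 (-5.92 ± 0.63, 0.00071), an X-linked placental gene. Serpinb9e (714-fold lower, 95% counting interval 197 to 5899) and Fam90a1b (-6.60 ± 0.83) belong to families of near-identical copies, so the counting may have split or shared their reads. Postn, a matrix gene that feeder fibroblasts also express, lost its call (-5.98 ± 1.38, adjusted p = 0.0343) without S2/3DKO replicate 2 or either S4KO library (0.0569 to 0.21). The defining fibroblast genes Lum and Dcn were at 0 in all 4 libraries, and the summed CPM of the 10 feeder markers was 10.95 and 22.3 in S4KO, 34.4 and 32.5 in S2/3DKO, and 31.2 and 36.1 in WT.

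At day 4 most of these differences stood again. The day 4 libraries are outside the day 0 contrast, but they share its fit and its estimate of spread. S4KO and S2/3DKO embryoid bodies differed in 2298 genes (12.3%), 1092 higher in S4KO (5.84%) and 1206 lower (6.45%), and in 632 to 1349 genes without any 1 of the 4 day 4 knockout libraries. Of the 402 genes higher at day 0, 392 had positive values at day 4, 272 were called higher and 0 lower. Of the 632 genes lower at day 0, 608 had negative values, 445 were called lower and 1 higher. Among all 18693 genes tested, 9750 had positive and 8885 negative values at day 4. The part of the chromosome-wide differences described below in these counts was not tested. Over all 18693 genes the log2 fold changes of the days had a Pearson correlation of 0.547, a description across genes, which are not independent replicates and which share their cell lines. Lefty1 had 67.0 and 20.2 CPM in S4KO, 0.892 and 0.257 CPM in S2/3DKO, and 41.4 and 111 CPM in WT at day 4, so S4KO then overlapped WT (6.23 ± 0.76 over S2/3DKO, adjusted p = 0.000692). Id1 had 2.62 and 4.88 CPM in S4KO, 40.1 and 39.3 CPM in S2/3DKO, and 10.95 and 29.3 CPM in WT (-3.41 ± 0.46, adjusted p = 0.00126). Of the Nodal and activin targets 7 of 16 were then higher and 0 lower, and of the BMP targets 6 of 18 were lower and 1 higher. Of the trophectoderm genes 20 of 23 were lower and 1, Eomes, was higher.

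The gene called in opposite directions was Pde1c, a phosphodiesterase gene, picked out after its values were seen. It had 0.186 and 0.139 CPM in S4KO and 0.645 and 0.992 CPM in S2/3DKO at day 0 (-2.31 ± 0.54, adjusted p = 0.0329), and 0.868 and 1.24 CPM in S4KO and 0.215 and 0.330 CPM in S2/3DKO at day 4 (1.94 ± 0.52, adjusted p = 0.0314). Its change between the days did not pass over all genes. By that test, of the S4KO minus S2/3DKO difference at day 4 minus that at day 0, edgeR called 1 gene of 18693 (0.00535%), against 1392 at an unadjusted p below 0.05 and 243 in DESeq2. A p that misses the threshold does not show that the difference was equal at both days.

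**Figure D3:**
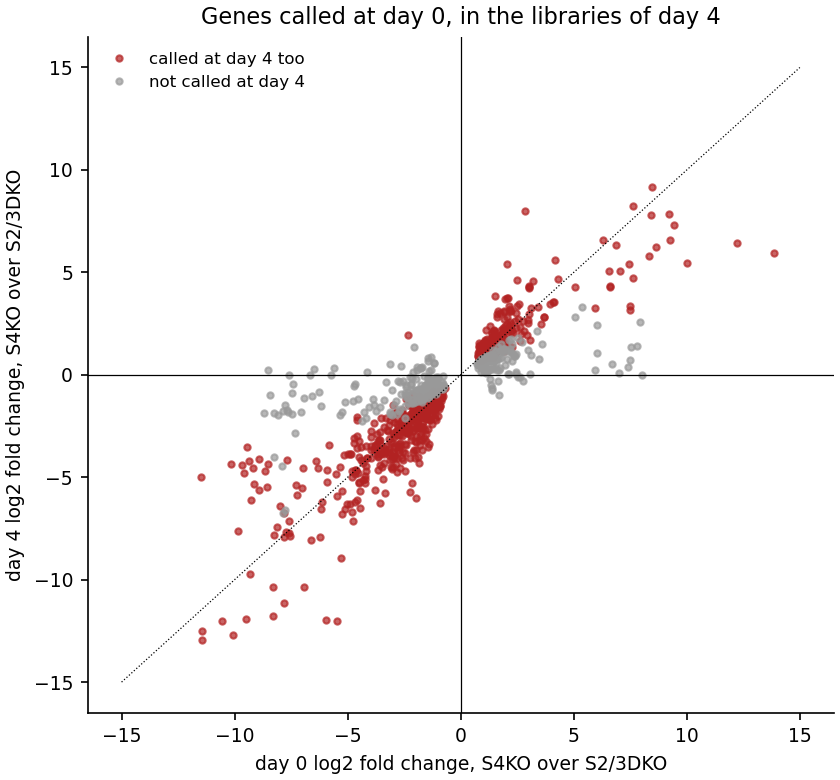
Log2 fold change of S4KO over S2/3DKO at day 4 (vertical axis) against that at day 0 (horizontal axis) for the 1034 genes called at day 0, coloured by whether they were also called at day 4. Most points lie in the quadrants where both days have the same sign, 392 of 402 higher genes and 608 of 632 lower genes.

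Whole chromosomes differed between the knockouts, a pattern looked at after the values were seen. Over the 14061 genes that averaged 1 CPM or more, the median log2 fold change was 0.05, but over the 744 such genes of chromosome 8 it was 0.69 at day 0 and 0.67 at day 4. Of these chromosome 8 genes 87.2% were positive, and the chromosome held 139 of the 365 higher calls among the 14061 genes, or 38.1% of them, with 5.29% of the genes. Against WT the chromosome 8 median at day 0 was 0.51 in S4KO and -0.20 in S2/3DKO. At day 4, taken from mean log2(CPM + 1), it was 0.57 in S4KO and -0.02 in S2/3DKO. Chromosome 19 had a median of 0.36 at day 0 and 0.37 at day 4, and chromosome 18 had -0.44 and -0.36. The X chromosome had -0.29 and -0.11, and it held 82 of the 561 lower calls, 14.6% of them, with 3.77% of the genes. The genes Cdh1, Smad1, Col4a1, Hprt, Plac1, Nrk, Rhox6 and Xist lie on chromosomes 8 and X. DNA copy number was not tested.

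**Figure D4:**
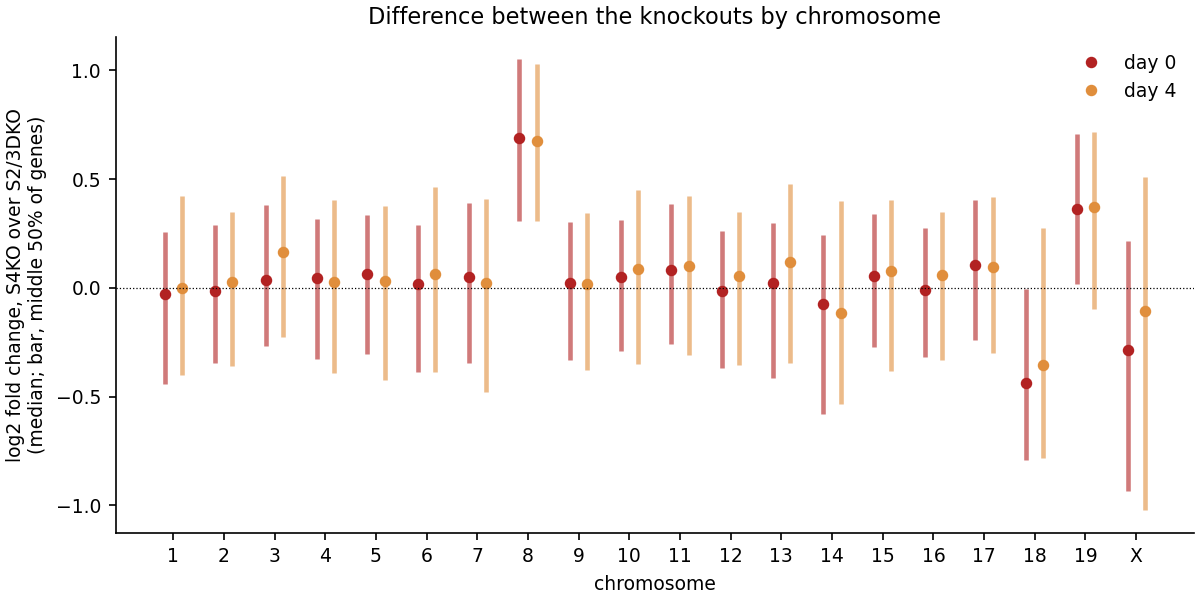
Median log2 fold change of S4KO over S2/3DKO for the genes of each chromosome that averaged 1 CPM or more, at day 0 and day 4; bars span the middle 50% of genes and the Y chromosome is left out. Chromosome 8 stands highest at both days (0.69 and 0.67), and chromosome 18 lowest (-0.44 and -0.36).

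In windows of 25 neighbouring genes, 64 of 554 had a median of at least 0.4 in size at day 0, and all 64 had the same sign at day 4. Of the 64, 52 lay in 10 stretches of 2 or more adjacent windows. On the X chromosome, the 125 genes from Fmr1nb to Otud6a (68761839 to 100442717) had a median of -0.97 at day 0 and -0.94 at day 4, with 48 called lower and 0 higher. Against WT at day 0 this stretch had a median of 0.37 in S4KO and 1.22 in S2/3DKO.

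Chromosome 18, which carries Smad2 and Smad4, changed sign at Smad2. The 316 genes before Smad2 had a median of -0.50 at day 0 and -0.45 at day 4, and 266 of them were negative at day 0. The 41 genes from Smad2 to the end of the chromosome had a median of 0.93 at day 0 and 1.03 at day 4, and 38 were positive at day 0. Against WT the genes before Smad2 had a median of 0.06 in S4KO and 0.58 in S2/3DKO at day 0, and those from Smad2 on had 0.11 in S4KO and -0.57 in S2/3DKO. The 10 genes that follow Smad2 were all positive at both days, with a median of 1.07 at day 0 and 1.24 at day 4, and S2/3DKO was at -1.17 against WT at both days. Haus1, a spindle protein gene among them, had 64.7 and 74.2 CPM in S4KO, 27.0 and 20.8 CPM in S2/3DKO, and 135 and 101 CPM in WT (1.54, adjusted p = 0.00585). Atp5a1, an ATP synthase subunit gene, had 1202 and 1277 CPM in S4KO, 665 and 641 CPM in S2/3DKO, and 1757 and 1812 CPM in WT (0.93, adjusted p = 0.0168). On the other side, Acaa2, an enzyme of fatty acid oxidation, had 13.98 and 20.2 CPM in S4KO, 70.7 and 63.9 CPM in S2/3DKO, and 32.3 and 31.2 CPM in WT (-1.98, adjusted p = 0.00148). Smad2 itself was positive (0.71), and Smad4 and Smad7, which lie before Smad2, were negative (-0.51 and -0.76), although none of the 3 passed. Against WT at day 0, Smad2 was 1.03 in S4KO and 0.33 in S2/3DKO. Smad7 was -1.57 in S4KO and -0.81 in S2/3DKO against WT. In S2/3DKO, Smad2 and Smad7 thus had the sign opposite to the median of their side, whereas Smad4 was above WT as its side was. The part of this pattern in those values was not tested.

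**Figure D5:**
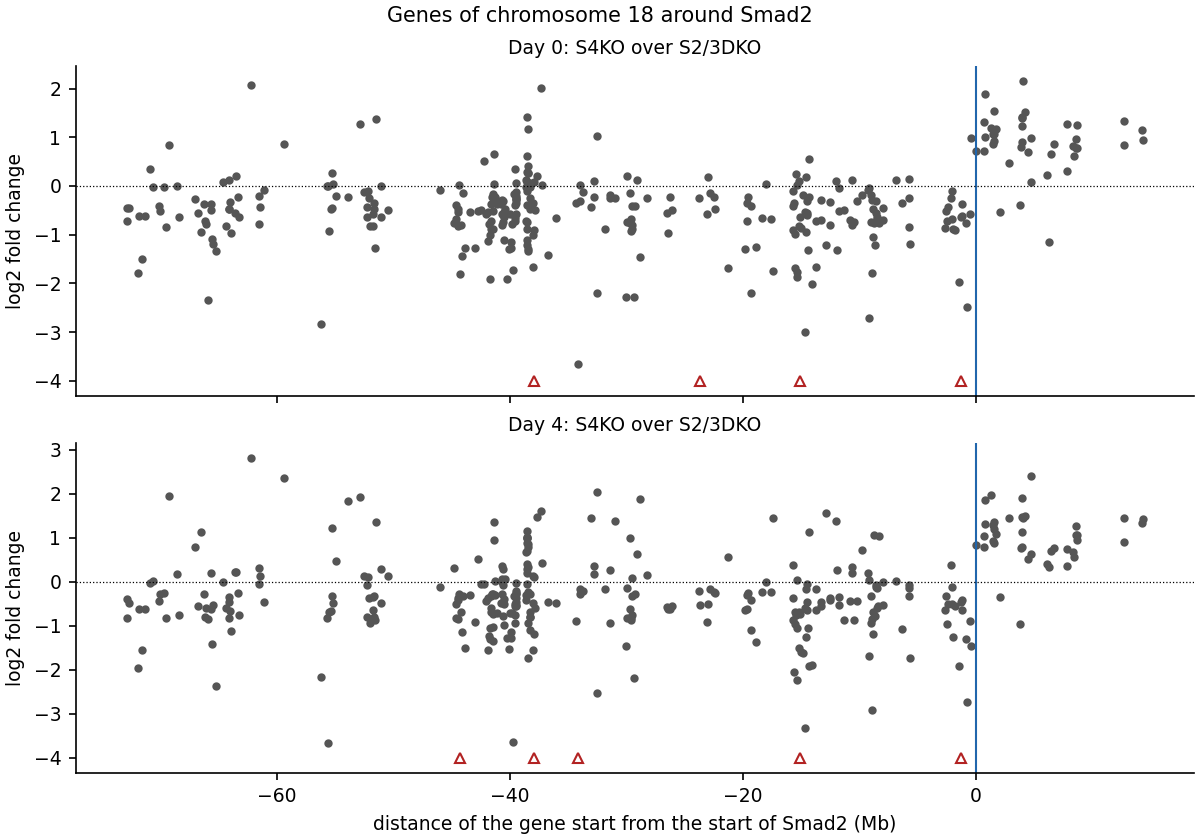
Log2 fold change of S4KO over S2/3DKO for each chromosome 18 gene that averaged 1 CPM or more, at day 0 and day 4, by distance of the gene from the start of Smad2 (Mb); open triangles mark genes beyond -4. Genes before Smad2 lie mostly below 0 (median -0.50 at day 0), and the 41 genes from Smad2 on lie mostly above it (0.93).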

How the data were processed

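RNA was taken from undifferentiated cells and day 4 embryoid bodies and made into TruSeq v2 libraries from 500 ng of RNA, per the labels' protocols. The authors deposited whole-number counts per Ensembl gene ID and FPKM per gene symbol (fragments per length and depth, their normalization). The submitters' processing notes name mm10, Cufflinks, StringTie and DESeq2 without roles; the aligner, annotation and strand setting are not given in the sources used here. Among the counts, the value 1 occurs 4966 times, 2 occurs 6989 times and 3 occurs 6895 times, so the values may not be direct tallies of reads.

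Genes were named from GENCODE M21 (32235 of 32285 IDs matched). Counts were tested with edgeR 4.0.16 (TMM scaling, filterByExpr, quasi-likelihood fit of all 12 libraries in 6 groups) in R 4.3.3, with Benjamini-Hochberg adjustment over 18693 genes. The standard error (SE) was taken from the log2 fold change and its F statistic, and CPM uses TMM-scaled library sizes. The procedure was also run on simulated counts with a spread common to all genes, and its outcome is not reported here. That run does not model the replicates that stand apart, so it does not speak to the changes when a library is left out. Intervals of fold at 95% and the floor of 3 counts cover counting error only. Alternatives were DESeq2 1.42.0, limma 3.58.1 on log2(FPKM + 1) and log2(FPKM + 0.1), which understates the change of low genes, other filters and scaling, length and GC offsets, a replicate block and left-out libraries. Figures were drawn with matplotlib 3.10.9, and tables were made with Python 3.11.15 and its packages scipy 1.17.1, pandas 2.3.3 and numpy 2.4.6.

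Named genes were, in each direction, the 15 called genes with the greatest log2 fold change that had non-overlapping groups, a mean of at least 5 CPM in the higher group and an established symbol, plus Smad2, Smad3, Smad4, Hprt, Xist, the Y-linked genes, the pathway lists and up to 8 called members of each list described. Non-called members named for their role, the genes beside Smad2 and the chromosome views were chosen by hand. Members and lists were chosen with earlier results of these data known. Some members of these lists are counted but not reported here by name.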

Additional observations from a re-analysis of the deposited data

Results flagged for a closer look

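The gene model Gm47381 on chromosome 13 was the gene whose S4KO minus S2/3DKO difference changed between the days by edgeR's test of that change, by -10.69 ± 0.82 on the log2 scale (SE, n = 2 libraries per group, adjusted p = 0.00173). At day 0 it had 4.99 and 6.05 CPM in S4KO, 5.83 and 6.82 CPM in S2/3DKO, and 8.75 and 8.80 CPM in WT. At day 4 it had 0 and 0 CPM in S4KO, 4.57 and 4.97 CPM in S2/3DKO, and 5.31 and 7.53 CPM in WT, so both day 4 S4KO libraries stood apart from all the others. The fitted value against a group at 0 depends on the prior count and is no bound.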

How the results depend on the processing

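The 1034 calls at day 0 (402 higher in S4KO, 632 lower) became 2127 (850 and 1277) in DESeq2, 1592 (999 lower) without a filter, 393 (107 and 286) with only the 4 contrasted libraries, 2518 (1419 and 1099) with length and GC offsets, and 607 (198 and 409) without chromosomes 8, X and Y. Without the WT day 0 libraries 212 were higher. Leaving out 1 library gave 334 to 1607 calls, 75 to 699 higher and 253 to 908 lower. The offsets moved the median of all genes to 0.08.

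The 2298 calls at day 4 became 4508 with only the contrasted libraries and 4457 with the offsets, and 632 to 1349 with 1 library left out. The 1 gene whose difference changed between days became 3 with RLE size factors, 3 at a minimum of 1 CPM, 243 in DESeq2, 139 without a filter, 27, 28 and 82 in limma (pseudocounts of 1 and 0.1, and 1 without a filter), 37 with the offsets, and 1 to 56 with 1 library left out.

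Correlations of replicate differences between groups ran from -0.243 to 0.523, with 0.204 for S4KO and S2/3DKO at day 0. They cannot decide whether the replicate numbers pair the samples, since the labels do not say how the replicates were made. With the replicate block there were 945 calls at day 0, 2240 at day 4 and 1 for the change, and with the block and the offsets 2334 (1306 higher, 1028 lower), 4217 and 25.

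Of 91 called named genes, 41 were called in the same direction under every alternative run and 0 changed sign. Among uncalled ones, Nodal ran from -0.049 (without S2/3DKO replicate 2) to 1.04 (without S2/3DKO replicate 1), and Smad7 from -1.30 (without S2/3DKO replicate 2) to 0.054 (without S2/3DKO replicate 1). The cause of these shifts was not tested. With 2 libraries per group, a left-out library leaves 1 that is assumed to vary like the other groups.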

Other observations

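Some lists not described above held few or no calls at day 0, where 5.53% of all genes tested were called. None of the 14 Hox genes tested was called by edgeR, with 0 at an unadjusted p below 0.05 and 0 in DESeq2. Of the 15 targets of LIF and STAT3, edgeR called 0, with 2 higher at an unadjusted p below 0.05 and 0 in DESeq2. Of 17 genes of the 2-cell embryo tested, edgeR called 0, with 4 lower at an unadjusted p below 0.05 and 1 lower in DESeq2.

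Over all genes tested, 2.15% were higher in S4KO and 3.38% lower at day 0, and 5.84% were higher and 6.45% lower at day 4. The FGF and ERK list had 1 of 21 genes lower in S4KO at day 0 and 8 higher at day 4. The formative and primed epiblast list had 1 higher and 1 lower of 16 at day 0, and 8 higher with 0 lower at day 4. Its day 0 median of -0.29 was 0.44 without S2/3DKO replicate 1, with 3 higher and 0 lower, and -0.68 without S2/3DKO replicate 2, with 0 higher and 1 lower. The difference between days was not tested for these lists. Among 20 epithelial adhesion and keratin genes, 6 were lower in S4KO and 1 was higher at day 0. The lower count was 3 without S4KO replicate 1, 4 without S2/3DKO replicate 2, and 7 without either of the other libraries.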
